A study of Mus musculus with 12 samples.

Results

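Pontine nucleus neurons of the Math1 lineage that carry a Cre-dependent Hoxa5 allele, by their column names, were compared with Math1 lineage neurons labelled with tdTomato alone. The comparison used 6 of the 12 libraries of the study, chosen by the names of the count columns. The 3 labelled-driven libraries are titled Math1Hoxa5-IRES-GFP, and their columns name Math1, Cag, lsl and Hoxa5. The 3 references are titled Math1tdTomato, and their columns name Math1 and tdT. All 6 came from pontine nucleus of CD-1 mouse embryos at E18.5, late in gestation; genetically labelled cells were isolated by microdissection and FACS, 2000 for each library. The study also holds 3 Math1tdTomato libraries whose columns name creErt2 and 3 Hoxa5tdTomato libraries. These are used below only for side by side values and in some alternative fits. The labels do not say how many embryos gave each library, so p-values may in part measure technical spread. Xist and Eif2s3y levels, given below, differed within each group, so its libraries did not all come from the same embryo. Whether each library is a separate embryo is not known. The titles name GFP for the labelled-driven libraries and tdTomato for the references, so the reporter and the Hoxa5 allele cannot be told apart. No label states that these references were made together with the labelled-driven libraries.

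Hox genes encode homeodomain transcription factors that give hindbrain and spinal segments their identity along the head-to-tail axis, often together with Pbx and Meis cofactors. Pontine nuclei are the main relay from cerebral cortex to cerebellum. Their glutamatergic neurons arise from Math1 (Atoh1) expressing progenitors of the hindbrain rhombic lip and migrate to the ventral hindbrain, where Hox expression differs with their origin. Cag is a ubiquitous promoter and lsl a stop cassette removed by Cre, so in such an allele Hoxa5 follows Cre activity and not the Hoxa5 promoter.

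Total counts of the 6 libraries ran from 22355961 to 29820776. The pontine neuron factor genes Nfib, Pax6 and Barhl1 and the vesicular glutamate transporter gene Slc17a6 were detected in all 6 libraries, Nfib at 3936, 5637 and 5735 CPM in labelled-driven replicates 1 to 3 and 5849.6, 4384 and 5527 CPM in references 1 to 3. Slc17a7, another vesicular glutamate transporter gene, was at or near the floor, with at most 1.02 CPM. CPM is the usual count relative to library size, here scaled by TMM factors, and 3 counts correspond to 0.0995 to 0.141 CPM. Labelled-driven replicate 3 stood apart, with 13074 genes with a count against 14779 to 15339 in the other 5 libraries, and its values are shown separately below. Xist, the X inactivation RNA, was at 3497, 5122 and 10.3 CPM in labelled-driven replicates 1 to 3 and at 1460.3, 8.96 and 4311 CPM in the references. The Y-linked Eif2s3y was at 0.218, 0.127 and 243 CPM and at 67.7, 147 and 0.159 CPM, so reference 1 held both.

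Hoxa5 itself did not separate the groups. Hoxa5 (Entrez 15402, chr6:52201754-52204587 in GRCm38.p6) was measured at 9.11, 15.8 and 77.0 CPM in labelled-driven replicates 1 to 3 and at 7.50, 4.08 and 30.0 CPM in references 1 to 3. The groups overlapped: replicates 1 and 2 lay below reference 3, and replicate 3 lay above every other library. The log2 fold change, labelled-driven minus references, was 1.28 ± 0.79, adjusted p = 0.69. Without labelled-driven replicate 3 it was -0.14 (adjusted p = 0.963). The Hoxa5 count therefore does not check the label of replicates 1 and 2, and the directions given here are those of libraries labelled as driven. Counts were made per gene and do not separate transcripts of an introduced allele from those of the native gene.

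No other Hox gene passed the test. Among Hox genes of paralog groups 1 to 4, which mark the hindbrain, 0 of 8 tested members passed in either direction. The most abundant was Hoxb3, at 125, 205 and 381 CPM against 307, 157 and 249 CPM, with overlapping groups. Hoxa3 was at 88.7, 169 and 191 CPM against 102, 54.1 and 94.5 CPM, a log2 fold change of 0.83 ± 0.32, adjusted p = 0.49. Of 27 listed genes of groups 5 to 13, 9 had a count and 3 were tested: Hoxa5, Hoxb5 and Hoxc5. Hoxb5 was at 12.1, 13.4 and 18.1 CPM against 36.9, 26.7 and 13.2 CPM, and Hoxc5 at 3.31, 1.69 and 6.32 CPM against 9.32, 2.25 and 11.3 CPM. Their log2 fold changes were -0.85 (adjusted p = 0.657) and -1.08 (adjusted p = 0.739). The list of TALE homeodomain genes (Pbx, Meis, Pknox and Tgif families), only some of which bind DNA with Hox proteins, had 0 of 11 tested members past the threshold. Among them, Meis2 was at 36.0, 96.1 and 203 CPM against 229, 140.3 and 188 CPM. Over all tested genes 0.321% passed, so counts of 0 in lists this short are near the overall share.

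Across 13410 genes tested, 43 (0.321%) passed an adjusted p of 0.05, 23 higher in the labelled-driven libraries (0.172%) and 20 lower (0.149%). The largest increases past the threshold were those of the collagen gene Col14a1, the potassium channel gene Kcnj2, the galanin receptor gene Galr1 and the calbindin gene Calb1, and 4 adhesion molecule genes, Negr1, Cadm2, Tenm1 and Chl1, were also higher. The largest decreases past it were those of the homeodomain factor gene Lhx2 and the sialyltransferase gene St3gal1. In all 43 genes the 3 labelled-driven libraries lay outside the range of the 3 references; by comparison 892 of all tested genes (6.65%) had every labelled-driven library above and 855 (6.38%) every one below. At an unadjusted p under 0.05 there were 1163 genes. The count depended on single libraries. It was 12 without labelled-driven replicate 1, 16 without replicate 2 and 130 without replicate 3. It was 9 without reference 1, 17 without reference 2 and 8 without reference 3. With library size as the only scaling, 14 genes passed as higher and 21 as lower.

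**Figure D1:**
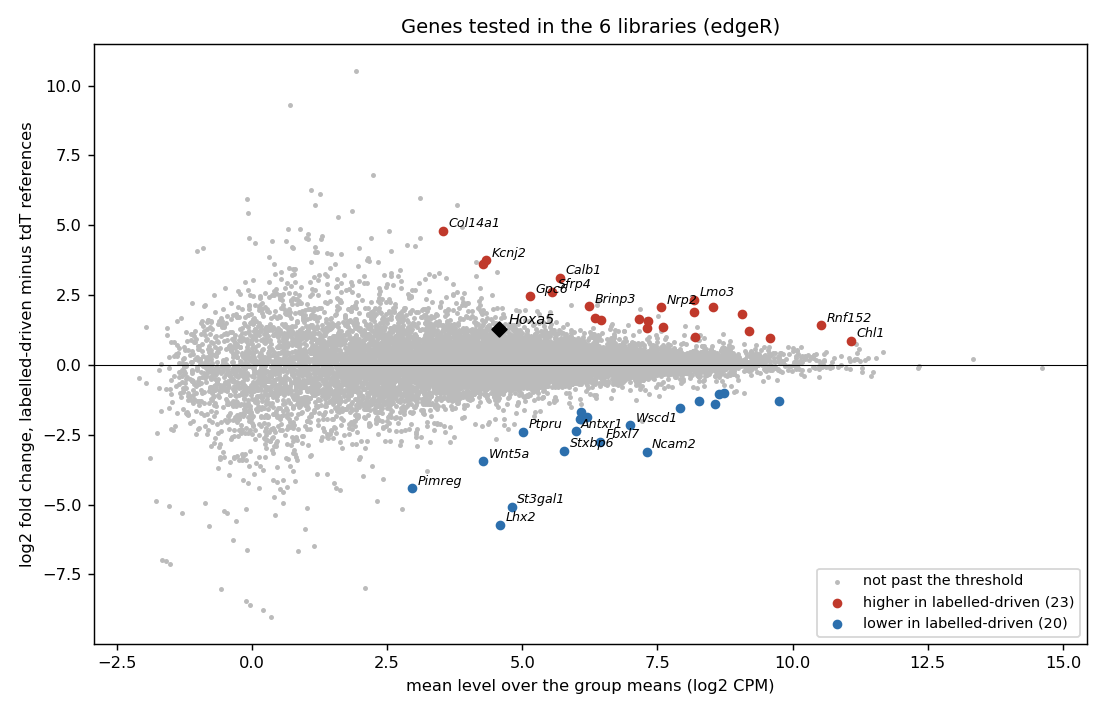
Each point is 1 of 13410 tested genes, with its mean level (log2 CPM) on the x axis and its log2 fold change, labelled-driven minus tdT references, on the y axis. Red points are the 23 genes past the threshold as higher, blue points the 20 past it as lower, and the black diamond is Hoxa5 at 1.28, which did not pass.

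Ncam2, Lmo3, Spock1, Negr1, Rnf152 and St3gal1 passed with all 6 libraries and also after each single library was left out. Ncam2 (Entrez 17968, chr16:81200697-81624290), an immunoglobulin-type cell adhesion molecule, was at 30.2, 41.9 and 25.5 CPM in the labelled-driven libraries and 250.4, 303 and 295 CPM in the references. Its log2 fold change was -3.11 ± 0.26, adjusted p = 0.000337, with every labelled-driven library below every reference. Lmo3 (chr6:138362918-138582206), a LIM-only cofactor of transcription, was at 491, 559 and 406 CPM against 117, 81.0 and 90.0 CPM, a log2 fold change of 2.33 ± 0.22, adjusted p = 0.000757. Spock1 (chr13:57421195-57908332), the secreted proteoglycan testican-1, was at 872, 925 and 701 CPM against 226, 255 and 231 CPM, a log2 fold change of 1.81 ± 0.18, adjusted p = 0.000757. Replicate 3 was the lowest labelled-driven library for Lmo3 and Spock1 and still lay far above the references. Negr1 (chr3:156561790-157316464), a GPI-anchored adhesion molecule of the IgLON family, was at 477, 486 and 406 CPM against 109, 145 and 119.6 CPM, a log2 fold change of 1.88 ± 0.20, adjusted p = 0.0015. Rnf152 (chr1:105276917-105356991), a lysosomal ubiquitin ligase, was at 2367, 2267 and 1827 CPM against 707, 906 and 805 CPM, a log2 fold change of 1.42 ± 0.16, adjusted p = 0.00177. Both were again lowest, among labelled-driven libraries, in replicate 3, with no overlap between groups. St3gal1 (chr15:67102875-67176946), which adds sialic acid to glycans, was at 3.09, 1.40 and 0.189 CPM against 43.6, 81.3 and 38.1 CPM, a log2 fold change of -5.08 ± 0.66, adjusted p = 0.00362. Positions are from GRCm38.p6.

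The remaining 37 genes passed without labelled-driven replicate 3 but missed the threshold without at least 1 of the other 5 libraries, with adjusted p up to 0.5. All 43 kept their direction in each of these fits. The closest were Lhx2, Fat4 and Nrp2, which missed it once each: Lhx2 without labelled-driven replicate 1 (adjusted p = 0.058), Fat4 without reference 3 (adjusted p = 0.0896) and Nrp2 without reference 1 (adjusted p = 0.117).

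**Figure D2:**
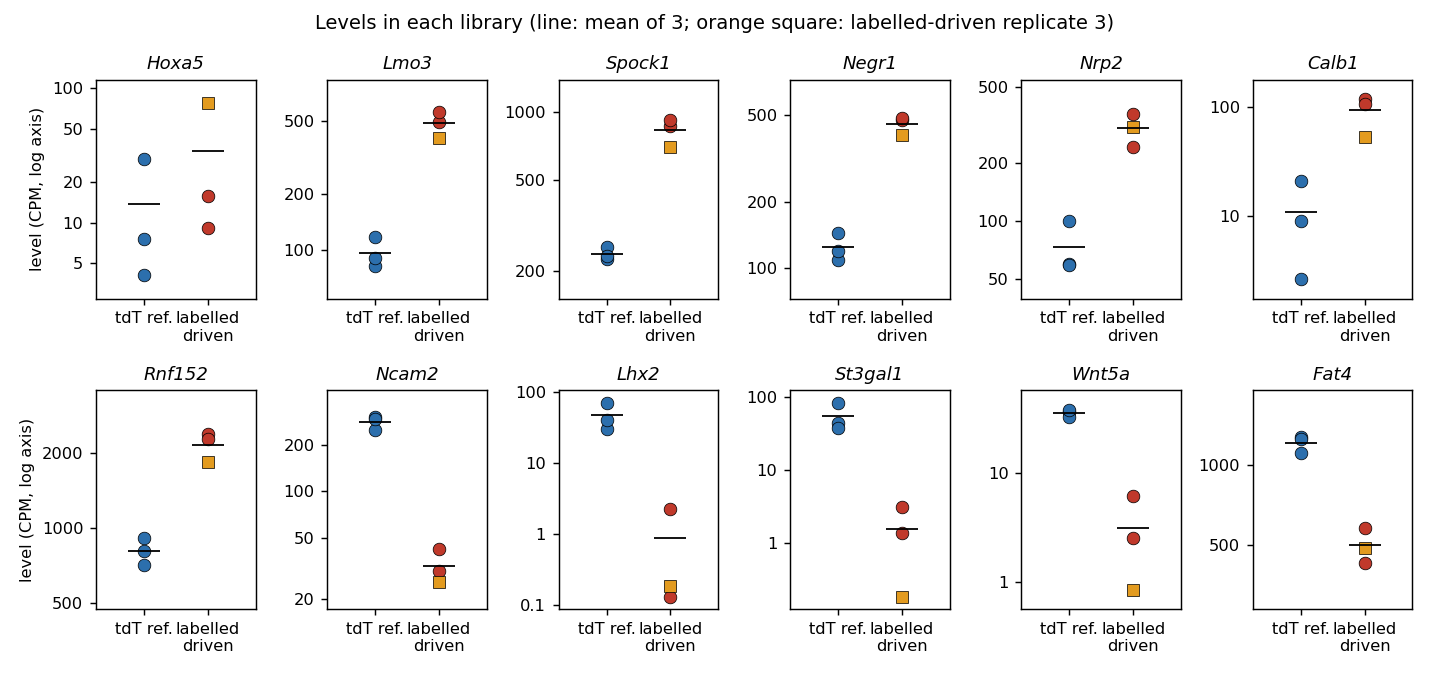
CPM on log axes in each of the 6 libraries for Hoxa5 and 11 genes past the threshold. Points are libraries, blue for tdT references, red for labelled-driven replicates 1 and 2 and an orange square for replicate 3, and lines are group means. The groups overlap for Hoxa5 and for none of the other 11.

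The upstream sequence of Spock1 is shown because it is the only one, among called genes with a promoter in the RefSeq table, to hold the Hox-Pbx composite motif TGATTNAT on either strand. The 250 bases before its start site were at chr13:57908333-57908582, minus strand, GRCm38.p6, and the motif is in capitals.
Spock1: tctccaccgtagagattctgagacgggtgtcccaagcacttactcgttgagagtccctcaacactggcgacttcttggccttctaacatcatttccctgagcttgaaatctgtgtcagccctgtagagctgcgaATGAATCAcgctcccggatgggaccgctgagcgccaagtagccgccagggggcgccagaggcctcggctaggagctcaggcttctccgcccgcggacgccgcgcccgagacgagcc
The first base of the match lay 116 bases before the start. In windows of 250 bases before to 50 bases after a start, searched on both strands, 1 of 29 called genes held the motif (3.45%), against 184 of 10560 tested genes (1.74%) and 1010 of 27025 genes in the table (3.74%). The homeodomain palindrome TAATTA, which can overlap the composite motif, was in 0 of 29 called genes, 343 of 10560 tested genes (3.25%) and 1655 of 27025 genes in the table (6.12%). A match describes letters only, and nothing about Hoxa5 binding was measured.

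Genes of transcriptional regulators were among the calls in both directions. Lhx2 (Entrez 16870, chr2:38339271-38369737), a LIM-homeodomain transcription factor, was at 0.131, 2.29 and 0.189 CPM in labelled-driven replicates 1 to 3 and 70.4, 30.2 and 40.9 CPM in references 1 to 3. Its log2 fold change was -5.73 ± 0.76, adjusted p = 0.00259; replicates 1 and 3 held at most a few counts. Lmo4 (chr3:144188530-144205255), which like Lmo3 is a LIM-only protein that binds LIM-homeodomain partners, was at 169.6, 243 and 122 CPM against 428, 405 and 479 CPM, a log2 fold change of -1.29 ± 0.24, adjusted p = 0.0449. Lmo3 and Lmo4 thus moved in opposite directions, each without overlap between groups. St18, a zinc finger factor of the Myt1 family, was at 249, 335 and 254 CPM against 147, 93.2 and 83.3 CPM (1.37 ± 0.25, adjusted p = 0.0449). Aff2, a nuclear protein of the AFF family encoded on the X chromosome, was at 240.1, 301 and 241 CPM against 599.9, 439 and 568 CPM (-1.04 ± 0.19, adjusted p = 0.0449). The imprinted genes Peg10 and Zdbf2 were both higher, Peg10 at 141, 146 and 84.3 CPM against 35.6, 50.1 and 31.3 CPM (1.68 ± 0.31, adjusted p = 0.0449), and Zdbf2 at 349, 440.3 and 389.8 CPM against 187, 209 and 191 CPM (1.01 ± 0.19, adjusted p = 0.0449). The values in parentheses are log2 fold changes.

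Of the 23 tested members of the pontine identity list, 1 passed as higher (Chl1) and 1 as lower (Lhx2), beside 0.321% of all tested genes. Neither is particular to this list: Chl1 is also in that of immunoglobulin adhesion molecules and Lhx2 in that of other rhombic lip neurons. Dcc, the netrin receptor, and Robo3, which modulates Slit responses and midline crossing, overlapped between groups. Dcc was at 144, 456 and 863 CPM against 685, 341 and 562 CPM, and Robo3 at 125, 202 and 582 CPM against 518, 228 and 410.1 CPM, so replicate 1 was lowest and replicate 3 highest in both. Nfia was at 1528, 2722 and 2571 CPM against 3303, 2172 and 2668 CPM. Atoh1 was at 0.131, 4.70 and 18.0 CPM against 4.88, 0.891 and 4.11 CPM.

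Immunoglobulin-type adhesion molecules held more calls than any other list examined, 4 higher and 1 lower of 36 tested members, beside 0.321% of all tested genes. The list also holds teneurins, and Tenm1 is 1 of its 4 higher calls. Lists were chosen with earlier results of these data known, so the rank of this list tests nothing. They are described by counts with no set test. Beside Negr1 and Ncam2, Cadm2 (Entrez 239857), a synaptic adhesion molecule, was at 646, 674 and 463 CPM against 113, 232 and 80.8 CPM, a log2 fold change of 2.07 ± 0.32, adjusted p = 0.0191. Chl1, an L1-family molecule, was at 3268, 2910.2 and 2175 CPM against 1515, 1704 and 1381 CPM, a log2 fold change of 0.86 ± 0.16, adjusted p = 0.046. Tenm1 (Entrez 23963), an X-linked teneurin that acts in synaptic partner adhesion, was at 276, 194 and 180.3 CPM against 56.9, 77.2 and 73.4 CPM (1.65 ± 0.25, adjusted p = 0.0175). Members of the list without a call included Ncam1, at 2592, 2766 and 2832 CPM against 2491, 2476 and 2299 CPM. Over the list, 9 of 36 members had all labelled-driven libraries above all references and 2 had all below, beside 6.65% above and 6.38% below over all tested genes, with a median log2 fold change of 0.26 beside 0.04 over all tested genes. Without labelled-driven replicate 3 the list counted 6 higher and 2 lower of 36, beside 0.925% of all 14055 genes tested in that fit.

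Other surface and matrix genes outside that list also passed. Cntnap2, a neurexin-related protein of axon membranes, was at 286, 189.9 and 245 CPM against 55.6, 113 and 72.5 CPM (1.59 ± 0.28, adjusted p = 0.0385). Reln, the secreted signal that guides neuron positioning, was at 951, 896 and 615 CPM against 288, 379.9 and 391 CPM (1.22 ± 0.20, adjusted p = 0.0285). Nrn1, a small GPI-anchored protein that promotes neurite growth, was at 175, 236 and 263 CPM against 98.8, 90.3 and 83.1 CPM (1.30 ± 0.23, adjusted p = 0.0385). For Reln, replicate 3 was the lowest labelled-driven library and for Nrn1 the highest. Gpc6, a heparan sulfate glypican, was at 69.6, 60.6 and 49.2 CPM against 5.74, 21.2 and 6.94 CPM (2.46 ± 0.45, adjusted p = 0.0449). Col14a1, a fibril-associated collagen, was at 39.1, 15.2 and 12.8 CPM against 0.166, 1.74 and 0.678 CPM (4.80 ± 0.86, adjusted p = 0.0259), with 63 counts over the 3 references. The 10 meningeal and fibroblast markers summed to 8.06, 43.0 and 4.48 CPM in labelled-driven replicates 1 to 3 and to 4.44, 17.8 and 8.41 CPM in the references, while Dcn was at 0 in all 6 libraries. The Col14a1 level was highest in labelled-driven replicate 1, where that sum was not, and in the references it had the same order as the sum. The part of such cells in the Col14a1 result was not tested.

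Lower surface genes included Fat4, a giant atypical cadherin, at 582, 429.9 and 487 CPM against 1115, 1279 and 1255 CPM (-1.28 ± 0.16, adjusted p = 0.005). Ptpru, a receptor tyrosine phosphatase, was at 6.58, 14.0 and 10.3 CPM against 47.5, 56.7 and 59.0 CPM (-2.39 ± 0.40, adjusted p = 0.0277). Antxr1, an anthrax toxin receptor that binds matrix proteins, was at 22.1, 33.4 and 4.57 CPM against 82.9, 112 and 125 CPM (-2.38 ± 0.44, adjusted p = 0.0449). Replicate 3 held the lowest Antxr1 value. Cemip2, a cell surface protein involved in hyaluronan turnover, was at 23.5, 23.8 and 48.0 CPM against 135, 105 and 106 CPM (-1.87 ± 0.32, adjusted p = 0.036). Of 24 tested cadherins and protocadherins in a separate list, 0 passed, beside 0.321% of all tested genes. Cdh2 was at 295, 342 and 287 CPM against 532, 431 and 427 CPM, every labelled-driven library below every reference (-0.59 ± 0.18, adjusted p = 0.347).

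Among axon guidance genes, Nrp2 rose and Efnb2 fell. Nrp2 (Entrez 18187, chr1:62703317-62818692), a co-receptor for class 3 semaphorins, was at 244, 361 and 308 CPM against 60.2, 59.6 and 100.3 CPM, a log2 fold change of 2.06 ± 0.26, adjusted p = 0.005. It was the only call among 30 tested semaphorins, plexins and neuropilins. Its paralog Nrp1 was at 474, 595 and 628 CPM against 869.9, 793 and 859.8 CPM, all labelled-driven libraries below the references, but with a log2 fold change of -0.57 ± 0.16, adjusted p = 0.317 it did not pass. Sema6d, a transmembrane semaphorin, was at 292, 424 and 308 CPM against 638, 527 and 793 CPM (-0.94 ± 0.21, adjusted p = 0.127). Efnb2 (Entrez 13642), a transmembrane ligand of Eph receptors, was at 24.4, 35.6 and 35.4 CPM against 90.5, 91.2 and 129 CPM, a log2 fold change of -1.70 ± 0.30, adjusted p = 0.0385, and was the only call among 21 tested Eph receptors and ephrins. Of 21 tested Netrin and Slit receptors and ligands, 0 passed, beside 0.321% of all tested genes. Robo2 was at 447, 428 and 266 CPM against 299, 311 and 335 CPM.

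In the Wnt pathway list, 1 of 28 tested members passed in each direction, beside 0.172% higher and 0.149% lower over all tested genes. Sfrp4 (Entrez 20379, chr13:19623175-19632825), a secreted Frizzled-related protein that binds Wnt ligands, was at 81.6, 88.1 and 73.3 CPM against 15.6, 8.70 and 14.5 CPM, a log2 fold change of 2.63 ± 0.34, adjusted p = 0.00534. Wnt5a (Entrez 22418, chr14:28504543-28527448), a ligand of non-canonical Wnt signalling, was at 2.53, 6.18 and 0.848 CPM against 36.3, 32.5 and 38.3 CPM, a log2 fold change of -3.45 ± 0.56, adjusted p = 0.0245. Neither gene showed overlap between groups, and replicate 3 held the lowest labelled-driven value of both. Fgfr2, a fibroblast growth factor receptor, was at 148, 109 and 136 CPM against 27.0, 50.5 and 53.3 CPM (1.60 ± 0.30, adjusted p = 0.046). Prkcb, a protein kinase C, was at 944, 1262 and 846 CPM against 538, 549 and 484 CPM (0.96 ± 0.18, adjusted p = 0.0449).

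Kcnj2 (chr11:111066164-111076825), an inwardly rectifying potassium channel, was at 26.4, 45.7 and 40.6 CPM against 2.52, 2.67 and 3.23 CPM, a log2 fold change of 3.75 ± 0.54, adjusted p = 0.00971. Galr1, a galanin receptor and 1 call of 17 tested neuropeptide genes, was at 34.4, 19.3 and 53.1 CPM against 1.43, 2.29 and 5.10 CPM, a log2 fold change of 3.62 ± 0.64, adjusted p = 0.0383. Calb1 (Entrez 12307, chr4:15881264-15906709), the calcium-binding protein calbindin, was at 118, 107 and 52.9 CPM against 9.12, 21.1 and 2.63 CPM, a log2 fold change of 3.12 ± 0.51, adjusted p = 0.0245. In replicate 3 Calb1 was lower than in replicates 1 and 2 and still above every reference. Kctd12, an auxiliary subunit of GABA-B receptors, was at 236, 179.6 and 211 CPM against 452, 589 and 606 CPM (-1.39 ± 0.20, adjusted p = 0.00971). Stxbp6, a SNARE-binding protein of vesicle release, was at 13.9, 17.4 and 3.21 CPM against 150.3, 55.9 and 88.9 CPM (-3.09 ± 0.50, adjusted p = 0.0245). Nefl, the light neurofilament chain, was at 170.3, 71.0 and 128 CPM against 361, 285 and 439 CPM (-1.56 ± 0.29, adjusted p = 0.0449). No labelled-driven library reached the lowest reference for Kctd12, Stxbp6 or Nefl. Receptor and channel lists gave 0 calls among 28 glutamate receptors and transporters, 15 GABA and glycine receptors, 36 potassium channels in a list that does not hold Kcnj2, and 31 sodium and calcium channels that were tested; with 0.321% of all tested genes called, a count of 0 in lists of these sizes is near the overall share.

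The other genes past the threshold had diverse roles. Fbxl7, a substrate subunit of ubiquitin ligases, was at 8.37, 26.2 and 33.2 CPM against 196, 117 and 138 CPM (-2.75 ± 0.39, adjusted p = 0.00971). Wscd1, a WSC-domain protein, was at 30.0, 45.5 and 65.3 CPM against 244, 156 and 227 CPM (-2.16 ± 0.30, adjusted p = 0.00971). Klhl1, a Kelch-family protein of neurons, was at 37.5, 31.3 and 14.4 CPM against 115, 106 and 102 CPM (-1.95 ± 0.33, adjusted p = 0.0294). These 3 genes fell, as did Frmd4b, a FERM-domain scaffold, Atp8a1, a phospholipid flippase, and Pimreg, a mitosis-linked protein. Frmd4b was at 29.4, 28.6 and 26.4 CPM against 117, 73.9 and 128 CPM (-1.92 ± 0.31, adjusted p = 0.0245). Atp8a1 was at 262, 329 and 249 CPM against 569.6, 531 and 607 CPM (-1.02 ± 0.18, adjusted p = 0.0385). Pimreg was at 1.39, 0.677 and 0 CPM against 21.6, 10.1 and 12.9 CPM (-4.42 ± 0.87, adjusted p = 0.0449), on 48 counts over the labelled-driven libraries. The 16 dividing cell markers summed to 95.1, 79.0 and 82.5 CPM against 71.7, 110 and 73.7 CPM, so the sums overlapped while Pimreg did not. Brinp3, a neural protein linked to cell cycle exit, rose, at 137, 117 and 115 CPM against 32.9, 35.6 and 17.3 CPM (2.10 ± 0.31, adjusted p = 0.0114).

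Of 37 gene lists, 8 held a call and 29 held none. The lists with a call were those of immunoglobulin adhesion molecules, pontine identity, semaphorins, Eph receptors, Wnt genes, neuropeptides, immature neuron genes (Reln, 1 of 22 tested) and other rhombic lip neurons (Calb1 higher and Lhx2 lower, of 8 tested). Altogether 13 of the 43 called genes belonged to a list. Retinoic acid genes, which act upstream of Hox expression, had 0 of 8 tested members past the threshold and a median log2 fold change of -0.69. Crabp1, which binds retinoic acid in the cytoplasm, was at 13.2, 52.2 and 113 CPM against 257, 146 and 314 CPM (-2.02 ± 0.50, adjusted p = 0.185), all labelled-driven libraries below the references. Polycomb and histone demethylase genes had 0 of 29 past it, with a median of -0.14. Synaptic organizers had 0 of 38 and synaptic vesicle genes 0 of 37. Ribosomal protein genes had 0 of 53 past the threshold and immediate early and stress genes 0 of 17. Beside 0.321% of all tested genes called, a count of 0 in lists of these sizes is near the overall share.

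In the lists of markers of other cell types, no member passed apart from Calb1 and Lhx2, where 0.321% of all tested genes passed. The 16 astrocyte and radial glia markers summed to 1086, 1437 and 1187 CPM in the labelled-driven libraries and to 799, 941 and 1063 CPM in the references, so every labelled-driven sum lay above every reference. Slc1a2, a glutamate transporter, and Ptprz1, a receptor phosphatase, held the largest parts of that sum. Members did not move together: the median log2 fold change over 13 tested members was -0.08. In all 3 labelled-driven libraries, 2 members lay above every reference and 2 below, beside 6.65% and 6.38% of all tested genes. The part of such cells in the results was not tested. The 16 endothelial markers summed to 2.18, 47.8 and 0.189 CPM in the labelled-driven libraries and to 3.85, 28.5 and 14.1 CPM in the references. The 12 pericyte markers summed to 23.4, 62.5 and 5.23 CPM against 3.38, 27.3 and 6.30 CPM. Labelled-driven replicate 2 and reference 2 thus held the highest vascular sums of their groups. Gad2, an enzyme of GABA synthesis, was at 136, 188 and 303 CPM against 242, 119 and 140.0 CPM, while Gad1 was at most 2.21 CPM. Gabra6 of granule neurons, Fev of serotonergic neurons and Dbh of noradrenergic neurons were at 0. In these bulk libraries, fewer cells of a type and less RNA per cell cannot be told apart.

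Labelled-driven replicate 3 departed from replicates 1 and 2 over many genes. Across tested genes, its log2 CPM correlated with theirs at r = 0.826 to 0.835, and with the references at 0.837 to 0.84. Replicates 1 and 2 correlated at 0.904 with each other and at 0.884 to 0.914 with the references. Within the references r was 0.915 to 0.920. These are correlations across genes, which are not independent replicates. It had 956 tested genes at 0 counts, where the other 5 libraries had 62 to 173. Departures were counted only over genes with a mean of at least 20 CPM in the 3 labelled-driven libraries. A high value in replicate 3 alone can bring a gene past that mean. Where replicates 1 and 2 lay within 0.5 log2 of each other among these (4733 genes), replicate 3 lay more than 1 log2 above both in 445 and below both in 370, which is 17.2%. The same measure, with the mean taken in each library's own group, was 3.89% and 3.32% for replicates 1 and 2 and 1.01% to 1.21% for the references. Total counts did not set it apart, at 23416202.

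**Figure D3:**
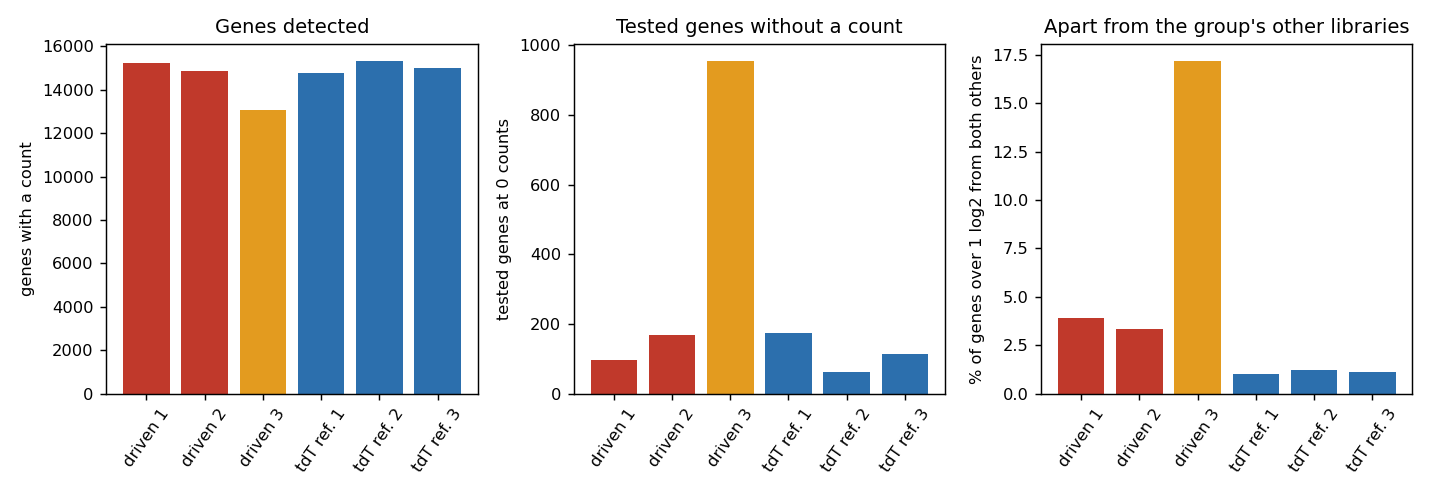
Bars give, for each of the 6 libraries, the number of genes with a count, the number of tested genes at 0 counts, and the percent of genes more than 1 log2 away from both other libraries of the group where those agree within 0.5 log2. The percent is over genes with a mean of at least 20 CPM in the library's group. Labelled-driven replicate 3 (orange) has 13074 genes with a count, 956 tested genes at 0 and 17.2% of genes apart.

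The genes farthest apart in replicate 3 did not pass between groups. They were chosen for a wide spread within the labelled-driven group, which makes a pass unlikely, so this tests nothing. Above the others were Rxra, a retinoid X receptor, at 2.00, 1.52 and 48.5 CPM in labelled-driven replicates 1 to 3, and Orai1, a calcium channel of store-operated entry, at 5.36, 5.17 and 84.8 CPM. The references held Rxra at 24.4, 13.9 and 18.0 CPM and Orai1 at 7.53, 4.46 and 5.46 CPM. Rxra in replicate 3 thus exceeded the references while replicates 1 and 2 lay below them, and its adjusted p was 0.972. Sytl2, a Rab effector, was at 1.31, 1.69 and 38.6 CPM, and Tgm3, a transglutaminase, at 1.13, 0.931 and 24.6 CPM, against 0.199, 1.27 and 0.678 CPM and 0.133, 0.976 and 0.0399 CPM in the references. Below the others were Tsix, the RNA antisense to Xist, at 236, 297 and 0.660 CPM, and Myo7a, an unconventional myosin, at 32.1, 24.6 and 0 CPM. References 1 to 3 held Tsix at 61.3, 0.127 and 256 CPM and Myo7a at 19.1, 27.9 and 1.28 CPM. Low Tsix was thus not particular to replicate 3: reference 2 was low too, and Xist was low in both. Slc25a32, a mitochondrial folate carrier, was at 27.5, 36.8 and 0.0471 CPM, Eogt, an O-GlcNAc transferase, at 27.2, 27.0 and 0.0471 CPM, and Sybu, a kinesin-linked syntaxin partner, at 36.6, 43.7 and 0.236 CPM. References held 15.4, 21.8 and 10.3 CPM of Slc25a32, and 15.4, 29.5 and 16.7 CPM of Eogt. Both were thus present in every library except replicate 3, which held 0.0471 CPM of each. The strand of counting is not given, so Tsix and Xist reads cannot be told apart.

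The 43 called genes were shared by replicate 3. Relative to the mean of the references, the median log2 difference over the 23 higher genes was 1.89, 1.96 and 1.70 in replicates 1 to 3, and over the 20 lower genes -2.26, -2.06 and -2.06. Replicate 3 showed the smallest difference of the group in 15 of 23 higher genes and in 3 of 20 lower genes. Since all 6 libraries chose these genes, this describes them and tests nothing.

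Without replicate 3, 130 of 14055 tested genes passed (0.925%), 93 higher (0.662%) and 37 lower (0.263%), among them all 43. The other 87 were 70 higher and 17 lower. Replicate 3 was also the labelled-driven library with low Xist, while the references were mixed, as given above. The 6 tested sex-linked genes had a median log2 fold change of -8.02 without replicate 3 and -0.19 with all 6 libraries. The part of sex in these calls was not tested. Over the 70 the median log2 difference was 1.37 in replicates 1 and 2 and 0.48 in replicate 3. Over the 17 it was -1.87 and -1.86 in replicates 1 and 2 and -0.66 in replicate 3. Since these genes passed without replicate 3 and missed the threshold with it, the selection itself favours a smaller difference there, and the medians test nothing. The 10 of smallest p, named after their values were seen, were Dlg2, Gabrb2, Epha3, Syt6, Cntn2, Klhl13, Pcdh19, AI593442, Pcdh9 and Pcdh7. Dlg2, a postsynaptic scaffold, was at 932, 1001 and 507 CPM against 364, 366 and 347 CPM, a log2 fold change of 1.42 ± 0.14 without replicate 3 (adjusted p = 0.000214) and 1.18 ± 0.23, adjusted p = 0.062 with it. All 3 labelled-driven libraries lay above the references. Gabrb2, a GABA-A receptor subunit, was at 236, 207 and 98.5 CPM against 62.7, 81.1 and 60.0 CPM, with adjusted p = 0.00157 without replicate 3 and 0.127 with it. Pcdh19, a protocadherin, was at 347, 304 and 63.2 CPM against 92.0, 99.8 and 38.5 CPM, where replicate 3 lay within the reference range. Epha3, a receptor of A-type ephrins, was at 36.2, 33.8 and 115 CPM against 123, 142 and 148 CPM, and Cntn2, a contactin of migrating neurons, at 228, 223 and 525 CPM against 774, 503 and 640.4 CPM. For both, replicates 1 and 2 lay far below the references and replicate 3 lay near the lowest reference. Syt6, a synaptotagmin, was at 64.3, 31.8 and 2.50 CPM against 2.12, 1.74 and 4.03 CPM, again with replicate 3 at the level of the references.

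**Figure D4:**
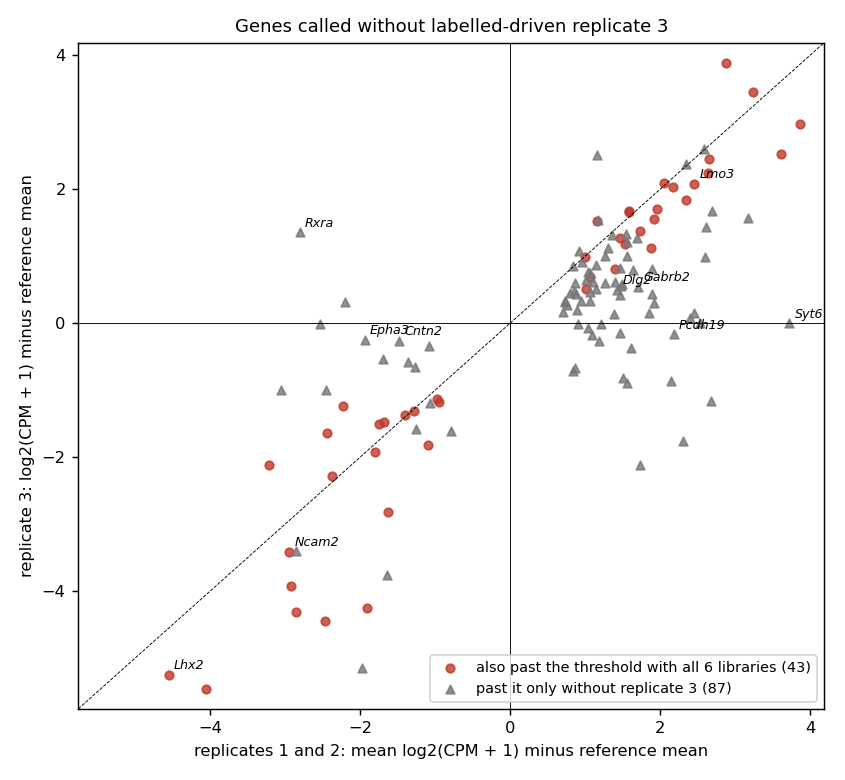
For the 130 genes past the threshold without replicate 3, the x axis gives the mean log2(CPM + 1) of labelled-driven replicates 1 and 2 minus the reference mean, and the y axis the same for replicate 3, with a dashed line of equality. Circles are the 43 genes that also passed with all 6 libraries, and triangles the 87 that passed only without replicate 3, many of which lie nearer 0 on the y axis.

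Lists moved unevenly over the labelled-driven libraries. Relative to the reference mean, GABA and glycine receptors had a median of 0.68 and 0.83 in replicates 1 and 2 and -0.01 in replicate 3. Cadherins and protocadherins had 0.40, 0.46 and -0.17, and glutamate receptors and transporters 0.53, 0.21 and -0.21. The pontine identity list had -0.24, 0.06 and 0.49. Over all tested genes the medians were 0.02, 0.03 and -0.08. Without replicate 3, cadherins and protocadherins counted 4 higher of 26 tested, synaptic vesicle genes 3 higher of 37, semaphorins, plexins and neuropilins 3 higher of 30, and retinoic acid genes 2 lower of 11, beside 0.662% higher and 0.263% lower over all genes in that fit.

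**Figure D5:**
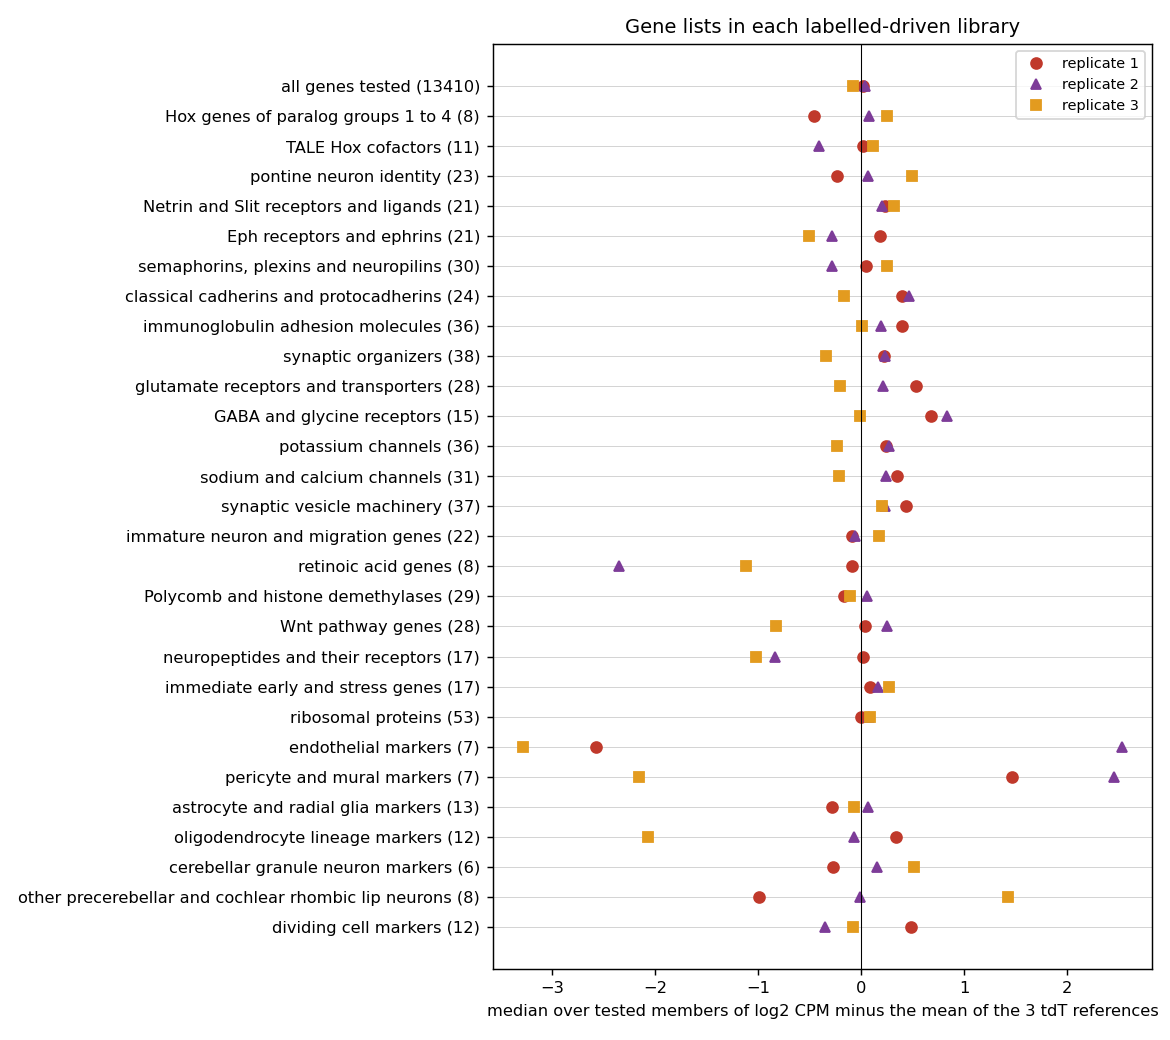
For each gene list with 6 or more tested members (number in parentheses), markers give the median over members of log2 CPM in each labelled-driven library minus the mean of the 3 tdT references. Circles, triangles and squares are replicates 1, 2 and 3. For GABA and glycine receptors, replicates 1 and 2 sit at 0.68 and 0.83 and replicate 3 at -0.01.

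The called genes were also set beside the 6 libraries that the comparison did not use, on 1 scale for all 12 libraries. Of the 23 higher genes, 22 were above all 3 creErt2 references in every labelled-driven library, and of the 20 lower genes, 19 were below all 3. Over all tested genes the shares were 11.1% and 11.6%, and the called genes were chosen on the same labelled-driven libraries, which largely fixes these counts. The exceptions were Col14a1 and Nefl, which overlapped the creErt2 references. Col14a1 ran from 0.800 to 16.4 CPM in creErt2 references, with a labelled-driven mean of 23.9 CPM. Nefl ran from 170 to 195 CPM there, with means of 131 CPM in labelled-driven libraries and 388 CPM in tdT references. Ncam2 averaged 34.6 CPM in labelled-driven libraries, 303 CPM in tdT references, 234 CPM in creErt2 references and 67.1 CPM in Hoxa5tdTomato libraries. Lmo3 averaged 517, 103, 64.8 and 249 CPM in that order, and Spock1 averaged 887, 255, 190 and 438 CPM. For each of these genes the Hoxa5tdTomato mean lay between the labelled-driven mean and the creErt2 mean. The Hoxa5tdTomato mean exceeded the creErt2 mean for 23 of 23 higher genes and was below it for 20 of 20 lower genes, where it was above in 47.5% of all tested genes and below in 52.5%. Hoxa5 averaged 36.2 CPM in labelled-driven libraries, 14.9 CPM in tdT references, 13.5 CPM in creErt2 references and 156 CPM in Hoxa5tdTomato libraries. The 6 libraries outside the comparison had 9973484 to 13302076 counts, so depth differed between the sets, and no test was made of these values.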

How the data were processed

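The authors deposited raw read counts for 23079 genes by Entrez number, per the file header, with no normalization; the submitters' processing notes name mm10 and bcl2fastq 1.8.4. No aligner, counter, annotation or strand rule is named in these sources. Per the labels' protocols, RNA of 1000 cell equivalents was SPIA amplified with the Ovation system and 1 ng of cDNA entered TruSeq Nano libraries, so counts are of amplified cDNA. Reference column numbers could not be matched to title numbers, so references were used by group. Symbols and positions came from RefSeq on GRCm38.p6 (23008 identifiers, 99.7%).

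The 6 libraries were fitted alone in R 4.3.3 with edgeR 4.0.16: filterByExpr at a minimum count of 10, TMM factors, 1 mean per group, the quasi-likelihood F test and Benjamini-Hochberg adjustment over 13410 genes at 0.05. Fold changes are log2, ± SE, and the fitted common dispersion was 0.374. Per-library differences used a prior count of 2. The 17 alternatives included DESeq2 1.42.0 and limma 3.58.1. The code was tested on simulated data. Named genes were the 15 largest fold changes in each direction past the threshold, called members of 37 lists, and otherwise up to 4 abundant members; the remaining called genes and some further members were named after their values were seen. Genes named as apart in replicate 3 needed at least 20 CPM on the higher side. The percent of genes apart was taken over genes with a group mean of at least 20 CPM. Members and lists were chosen with earlier results of these data known. Some genes are not reported here.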

Additional observations from a re-analysis of the deposited data

How the results depend on the processing

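All 43 called genes kept their direction in each of 17 alternatives, each passed in at least 9, and 5 passed in every one (Ncam2, Lmo3, Spock1, Negr1 and Rnf152). Of 731 values of single called genes under an alternative, 518 kept their side of the threshold and 213 missed it. Other tests changed the count: the DESeq2 Wald test called 164 genes (99 higher, 65 lower), limma voom with sample quality weights 123 (91 higher, 32 lower), with a weight of 0.238 for labelled-driven replicate 3, and edgeR in its legacy mode 10 (7 higher, 3 lower). Library size as the only scaling called 35, with 14 higher, and moved the median log2 fold change of all tested genes from 0.04 to -0.05. The fit of all 12 libraries in 4 groups called 306 (192 higher, 114 lower), all 6 references as 1 group 441 (306 higher, 135 lower), and the creErt2 references in place of the tdT references 124 (62 higher, 62 lower), with 34 of the 43. DESeq2 size factors in edgeR, no filter on low counts and a filter of 1 CPM called 43, 45 and 42. Leaving out single libraries gave 8 to 130 calls, 4 to 93 higher and 3 to 37 lower. Leaving out single libraries moved the Hoxa5 log2 fold change from -0.14 (without labelled-driven replicate 3) to 2.48 (without reference 3), and Hoxc5 changed sign to 0.91 against the creErt2 references. The cause of these changes was not tested, except that fits without a library have fewer samples.

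Replicate numbers did not pair the samples: deviations of same-numbered libraries correlated at -0.028, 0.050 and 0.047 across genes, and labelled-driven replicate 1 correlated best with reference 2 (0.104). With the number as a replicate block, 43 genes passed (24 higher, 19 lower), 38 of them among the 43 of the fit without it. Depth limits low genes: at 0.0995 to 0.141 CPM for 3 counts, levels such as those of Lhx2 or Pimreg in single labelled-driven libraries rest on few counts.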

Other observations

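Some genes not described above lay outside the reference range in all 3 labelled-driven libraries without passing the test. They were chosen after their values were seen. Over all tested genes, 1747 of 13410 (13%) did not overlap between the groups, in either direction. Gt(ROSA)26Sor, the transcript of the Rosa26 locus, was at 44.8, 88.3 and 42.2 CPM in labelled-driven replicates 1 to 3 and at 18.2, 23.8 and 20.2 CPM in references 1 to 3, a log2 fold change of 1.51 ± 0.39, adjusted p = 0.218; without replicate 3 it was 1.69 with adjusted p = 0.0355. Nab1, a corepressor of EGR transcription factors, was at 107, 133 and 110.2 CPM against 276, 205 and 284 CPM, a log2 fold change of -1.13 ± 0.22, adjusted p = 0.0659. Calb2, the calcium-binding protein calretinin, was at 7.24, 14.0 and 7.73 CPM against 0.995, 4.08 and 0.957 CPM, a log2 fold change of 2.35 ± 0.77, adjusted p = 0.36. Klf6, a zinc finger factor often counted among early response genes, was at 140.3, 146 and 82.9 CPM against 44.0, 79.2 and 44.5 CPM, a log2 fold change of 1.15 ± 0.32, adjusted p = 0.285. The somatostatin gene Sst was at 14.6, 6.18 and 28.2 CPM against 62.9, 60.9 and 49.2 CPM (-1.85 ± 0.43, adjusted p = 0.157) and the somatostatin receptor gene Sstr1 at 105, 108 and 222 CPM against 61.7, 37.4 and 66.2 CPM (1.38 ± 0.34, adjusted p = 0.192), so the ligand was lower and the receptor higher in every labelled-driven library, with neither past the threshold.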
